A study of Mus musculus with 30 samples.

Results

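The major histone gene cluster of the mouse lies on chromosome 13, and the stretch of it described here runs from 21.7 to 23.63 Mb in the mm10 build. Its members were chosen by position and depth alone: every CpG of the stretch, with both strands summed, that had 10 or more reads in all 30 libraries. There were 276 such CpGs of 416876 on the autosomes and X, the first at chr13:21709757-21709758 and the last at chr13:23622505-23622506. In all, 1611 CpGs of the stretch were listed in at least 1 library, 659 had enough reads for a comparison of the groups, and 274 of the 276 were among these.

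The assay was RRBS (reduced representation bisulfite sequencing), in which CpG-rich restriction fragments are selected and their methylated cytosines told from unmethylated ones, and it was applied to sperm washed from both cauda epididymides of 30 male C57BL/6J mice, each housed alone and each a separate replicate. For 15 mice the drinking water was reverse-osmosis water to which cadmium chloride had been added, at 0.9 ppm cadmium and an average dose of 0.68 mg per kg of body weight. The other 15, the vehicle group, drank the same water without it. All the mice ate a diet with 10% of its energy from fat, were 7 weeks old initially and had 9 weeks of exposure, and the series asks whether cadmium changes methylation in sperm.

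Replication histone genes encode the linker histone H1 and the core histones H2A, H2B, H3 and H4 that package newly copied DNA, and they are transcribed in bulk during DNA synthesis from short genes without introns. Testis variants (H1t, TH2A and TH2B) replace some of these proteins in developing male germ cells, before protamines replace most histones in sperm. The rodent TH2B gene is known to be unmethylated in germ cells and methylated in somatic tissues. Between and around the histone genes the same stretch of chromosome 13 holds many tRNA genes, zinc finger genes and, in its middle, a large family of vomeronasal receptor genes, which serve pheromone sensing.

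The RefSeq annotation placed 40 histone genes in the stretch, 39 protein-coding genes and the pseudogene H2ac14, together with 79 tRNA genes, 36 vomeronasal receptor genes, 1 olfactory receptor gene, 2 zinc finger genes and 19 others. H1t (symbol H1f6), TH2B (H2bc1) and TH2A (H2ac1) are not inside it. These lie among 16 further histone genes on its distal side, H1t at chr13:23695811-23696545, TH2B at chr13:23933725-23934156 and TH2A at chr13:23934437-23934913. They are reported below as the continuation of the cluster, where 42 CpGs met the same depth rule.

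The promoters below show what was read at the genes that the comparisons turn on. They are RefSeq promoter sequences on GRCm38.p6, from 250 bases before to 50 after the gene start, and capitals mark the CpGs that were tested here. H1f4 and H1f5 encode linker histones and are the histone genes of the stretch with most tested CpGs, H4c11 encodes H4 and has the lowest mean of all histone genes of the stretch, H3c4 encodes H3, and H2bc1 encodes TH2B. The H1f4 promoter is on the minus strand at chr13:23622509-23622808, that of H1f5 on the minus strand at chr13:21780576-21780875, that of H4c11 on the plus strand at chr13:21734784-21735083, that of H3c4 on the plus strand at chr13:23575513-23575812 and that of H2bc1 on the minus strand at chr13:23934107-23934406.
H1f4: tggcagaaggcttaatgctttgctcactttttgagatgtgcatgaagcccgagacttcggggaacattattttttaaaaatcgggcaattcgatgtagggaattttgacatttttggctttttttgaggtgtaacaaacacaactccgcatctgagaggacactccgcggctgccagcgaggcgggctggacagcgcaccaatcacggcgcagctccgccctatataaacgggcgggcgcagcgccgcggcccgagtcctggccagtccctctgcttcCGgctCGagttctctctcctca
H1f5: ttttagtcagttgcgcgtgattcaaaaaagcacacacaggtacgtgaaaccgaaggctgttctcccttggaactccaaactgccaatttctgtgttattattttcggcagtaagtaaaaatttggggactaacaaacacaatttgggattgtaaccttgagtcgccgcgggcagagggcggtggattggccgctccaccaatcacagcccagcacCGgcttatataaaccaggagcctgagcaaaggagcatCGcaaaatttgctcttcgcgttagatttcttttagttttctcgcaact
H4c11: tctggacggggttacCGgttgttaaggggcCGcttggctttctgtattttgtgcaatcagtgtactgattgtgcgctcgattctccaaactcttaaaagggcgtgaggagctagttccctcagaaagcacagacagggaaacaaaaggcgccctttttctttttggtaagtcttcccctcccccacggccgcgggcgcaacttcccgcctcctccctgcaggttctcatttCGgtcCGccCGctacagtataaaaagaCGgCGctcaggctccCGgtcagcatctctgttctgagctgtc
H3c4: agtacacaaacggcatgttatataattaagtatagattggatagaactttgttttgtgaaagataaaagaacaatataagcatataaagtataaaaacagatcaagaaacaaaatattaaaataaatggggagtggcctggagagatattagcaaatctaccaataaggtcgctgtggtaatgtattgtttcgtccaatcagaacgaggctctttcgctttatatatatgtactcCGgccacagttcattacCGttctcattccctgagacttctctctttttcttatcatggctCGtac
H2bc1: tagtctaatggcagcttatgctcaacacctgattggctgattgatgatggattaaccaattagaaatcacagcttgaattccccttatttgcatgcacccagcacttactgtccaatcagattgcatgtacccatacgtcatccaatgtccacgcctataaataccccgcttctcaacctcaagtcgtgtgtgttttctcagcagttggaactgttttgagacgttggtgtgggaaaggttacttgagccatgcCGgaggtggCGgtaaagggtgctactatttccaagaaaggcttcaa

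In H1f4, 2 of the 22 CpGs of the promoter were tested, both in its last bases, and they averaged 0.12% and 1.1% methylation over the mice. In H4c11, 8 of 18 were tested and averaged between 0% and 2.12%. The 2 tested promoter CpGs of H1f5 averaged 1.14% and 2.18%, and the 3 of H3c4 lay between 0% and 1.05%. The TH2B promoter holds 7 CpGs, of which the 2 tested ones, near the end of the printed sequence, averaged 23.1% and 26.3%. Both lie after the gene start and are among the tested CpGs in the TH2B gene given below, so none before the gene start was tested. The promoter of TH2A, on the opposite strand and divergent from that of TH2B, held no tested CpG, nor did that of H1t.

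Histone promoters share short elements that were searched on both strands of the same 300-base sequences. CCAAT was found in 44 of 52 histone promoters of chromosome 13 (84.6%) and in 32 of the 39 in the stretch (82.1%), against 37.4% of all 32851 promoters of the table. TATAAA was found in 59.6% of the 52 and 13.6% of all, and ATTTGCAT, the octamer, in 21.2% and 1.74%. H1f4, H1f5 and H3c4 hold CCAAT and TATAAA, H4c11 holds TATAAA only, and the TH2B promoter holds all 3. A match is a description of the letters and was not tied to any measured site. The median number of CpGs was 12 in the promoters of the stretch and 7 in all promoters.

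Most of the members were unmethylated in sperm, as is usual for the CpG-rich DNA that RRBS reads. Of the 276 CpGs, 199 (72.1%) averaged under 10% methylation, 32 (11.6%) lay between 20% and 80%, and 26 (9.42%) were above 80%. Over all CpGs read in every library, 63.1% were under 10% and 22% above 80%. The mean of the 276 CpGs was 15.4% ± 2.14 (SD, n = 30), with 12.7% in the lowest mouse, 14.9% in the median and 20.1% in the highest.

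**Figure D1:**
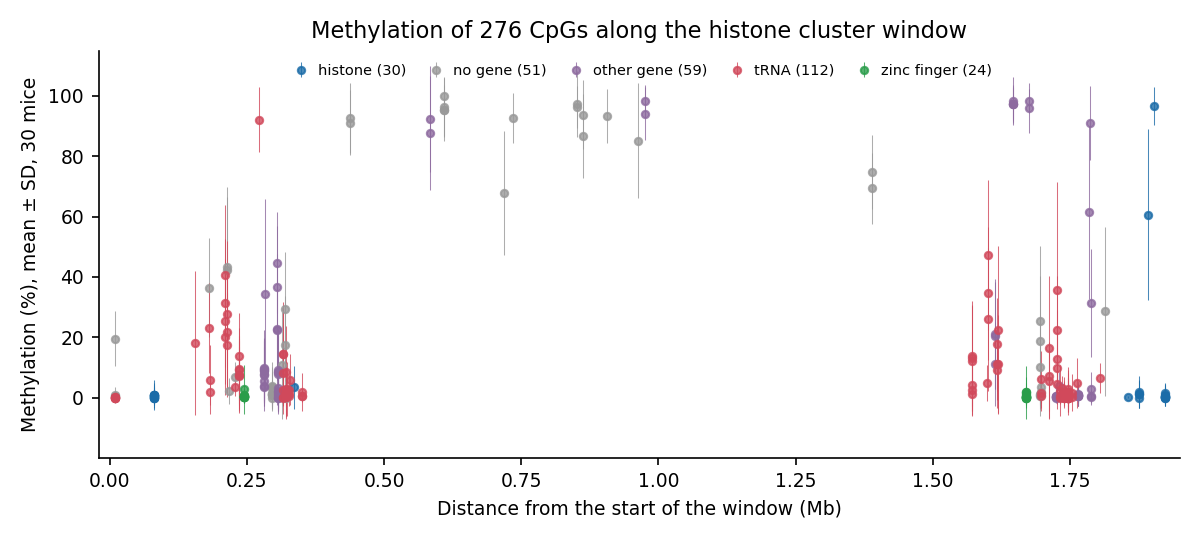
Methylation of each of the 276 CpGs, as the mean (point) and SD (line) of 30 mice, against the distance from the start of the stretch in Mb. The legend gives the kind of locus with its number of CpGs. Histone and zinc finger CpGs sit near 0 except for the high points in the long H2bc6 gene model, tRNA CpGs range more widely, and the CpGs in the middle are mostly above 80%.

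Kinds of locus differed more than mice did. A CpG was assigned to a gene when it lay in the gene or within 500 bp of either end, with histone genes taking precedence. The 23 CpGs of H1 genes averaged 0.356% ± 0.495 (SD, n = 30) and the 4 of H3 genes 1.0% ± 1.91 (SD, n = 30). The 24 CpGs at zinc finger genes averaged 0.535% ± 0.671 (SD, n = 30).

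The 112 CpGs at tRNA genes averaged 7.58% ± 3.07 (SD, n = 30), the 59 at other genes 25% ± 2.37 (SD, n = 30) and the 51 at no gene 34.3% ± 3.11 (SD, n = 30). The 20 members between the first and last vomeronasal receptor gene, most of them at no gene, averaged 90% ± 3.04 (SD, n = 30). No vomeronasal or olfactory receptor gene had 3 tested CpGs. The 3 CpGs assigned to H2B genes averaged 53.5% ± 9.91 (SD, n = 30), because RefSeq draws H2bc6 as a long model from chr13:23583670-23621124 and 2 of the 3 fell inside it, at 60.6% and 96.7%. Over the 28 CpGs within 500 bp of a histone gene end, which leaves those 2 out, the mean was 0.554% ± 0.609 (SD, n = 30), while over all 30 CpGs assigned to histone genes it was 5.76% ± 1.05 (SD, n = 30).

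**Figure D2:**
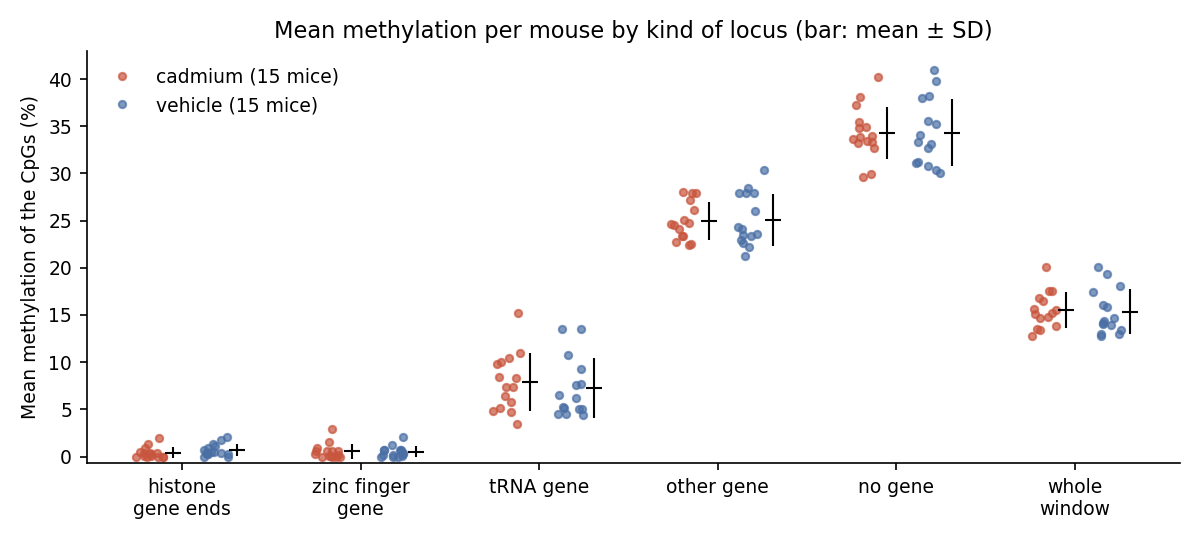
Mean methylation in percent of the members of each kind of locus, 1 point per mouse, for 15 cadmium and 15 vehicle mice; the bar beside each set is the mean ± SD. The groups overlap in every kind of locus, and the tRNA values run from 3.44% to 15.2%.

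The groups did not separate in any of these means. Cadmium mice ranged from 12.7% over a median of 15.2% to 20.1% in the mean of the whole stretch, and vehicle mice from 12.7% over 14.4% to 20%. The group means were 15.5% ± 1.94 (SD, n = 15) and 15.3% ± 2.38 (SD, n = 15), so that their difference of 0.192 points was far inside the spread between mice. At tRNA genes the means were 7.88% ± 3.07 in cadmium and 7.27% ± 3.15 in vehicle mice (SD, n = 15 each). At H1 genes they were 0.213% ± 0.439 and 0.498% ± 0.521 (SD, n = 15 each), with 0% in the median cadmium mouse and 0.354% in the median vehicle mouse, and the ranges overlapped from 0% upwards. The 3 vehicle mice with the highest share of mitochondrial reads moved these values. Without them the vehicle mean was 14.6% ± 2.01 (SD, n = 12) over the stretch, a difference of 0.933 points, and 6.29% ± 2.56 (SD, n = 12) at tRNA genes, a difference of 1.59 points.

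No member was called between cadmium and vehicle mice. The logistic model with a dispersion term, adjusted by Benjamini-Hochberg over all 1125285 tested CpGs, called 0 of 274 members, against a background of 6 CpGs or 0.000533%. At an unadjusted p under 0.05 there were 27 members, 14 higher and 13 lower in cadmium mice, which is 9.85% beside 10.1% of all tested CpGs (5.32% higher and 4.75% lower). The counts in the wider set of 659 tested CpGs were 0 called and 70 at the unadjusted threshold, 10.6%. The median difference of the 274 was 0 points, and their differences ran from -14.4 to 21.9 points. limma, fitted to the percentages with or without the replicate number as a block, also called 0 (0% of all CpGs). A model without the dispersion term, which treats reads and not mice as independent, called 137 of 274 members (50%) beside 43% of all CpGs, 36 of 77 regions (46.8%) beside 58.1% and 32 of 51 gene windows (62.7%) beside 54.9%.

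The member with the smallest p was a CpG in the H1f4 gene, at chr13:23622462-23622463. It read 0% in all 15 cadmium mice, 0 of 1417 reads, which allows a share of up to 0.212%. Vehicle mice ranged from 0% over a median of 0% to 12.6%, with methylated reads in 5 of 15. The difference of -2.86 points had an adjusted p of 0.165 in the logistic model, short of the threshold, and 10 vehicle mice overlapped the cadmium mice at 0%.

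A CpG of the H1f5 gene, at chr13:21780222-21780223, went the other way. It read 0% in all 15 vehicle mice (0 of 1670 reads, an upper limit of 0.18%) and ranged from 0% over a median of 0% to 15.5% in cadmium mice, 2 of which were above 0 (adjusted p = 0.365, logistic model). In H3c4 the CpG at chr13:23575837-23575838 read 0% in all vehicle mice (0 of 1316 reads, up to 0.228%), and 4 cadmium mice were above 0, the highest at 23.9% (adjusted p = 0.37, logistic model). The median cadmium mouse was at 0% here too, so that at all 3 histone CpGs a minority of the mice of 1 group held every methylated read.

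The other CpGs with the smallest p were of the same kind. The CpG at chr13:22308487-22308488, in the vomeronasal stretch, was at 98.7% to 100% in cadmium mice and at 64.3% to 100% in vehicle mice, with a median of 100% in both (adjusted p = 0.265, logistic model). Near the isoleucine tRNA gene n-TIaat8 and the alanine tRNA gene n-TAcgc10, at chr13:23438386-23438387, cadmium mice had 0 of 2709 reads (up to 0.111%) and 3 vehicle mice had up to 3.47% (adjusted p = 0.334). Near Zfp184, which encodes a zinc finger protein, the CpG at chr13:21945283-21945284 had 0 of 699 methylated reads in cadmium mice (up to 0.429%) and 2 vehicle mice above 0, up to 4.24% (adjusted p = 0.336).

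Regions, which sum the reads of runs of at least 3 tested CpGs with gaps of no more than 100 bp, gave no call either. Of 77 regions in the stretch 0 were called, beside 1 of 102696 in all (0.000974%), and 3 had an unadjusted p under 0.05, 3.9% beside 6.02% of all regions (3% higher and 3.02% lower). Of these 3, 2 were higher and 1 was lower in cadmium mice. The smallest p was at the tyrosine tRNA gene n-TYgta7, chr13:23432749-23432769, where cadmium mice had 0 of 1409 methylated reads (up to 0.213%) and 3 of 14 vehicle mice were above 0, up to 9.21% (adjusted p = 0.58, logistic model). The regions higher in cadmium mice were chr13:23424568-23424600, at no gene, with 3 of 11 cadmium mice above 0 and up to 8.33% against 0 of 633 reads in 10 vehicle mice (up to 0.474%), and chr13:21710043-21710073, also at no gene, with a cadmium mean of 0.691% ± 1.44 and a vehicle mean of 0.0698% ± 0.106 (SD, n = 15 each). Their adjusted p were 0.611 and 0.761 by the logistic model.

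The other named regions, which complete the 3 with the smallest p in each direction, did not reach an unadjusted p of 0.05. The region at the zinc finger gene Zfp322a, chr13:23368895-23369524, has 46 CpGs, the most in the stretch, and averaged 0.252% ± 0.406 in cadmium mice and 0.604% ± 0.608 in vehicle mice (SD, n = 15 each, adjusted p = 0.897 by the logistic model). Beside the glycine tRNA gene n-TGgcc7, chr13:21710269-21710385 read 0% in every cadmium mouse (0 of 7900 reads, up to 0.038%) and at most 1.52% in vehicle mice. The region of the isoleucine tRNA gene n-TIaat15 is also the whole of that gene's window and is given there.

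Gene windows sum the tested CpGs within 500 bp of either end of a gene. Among 51 measured windows of the stretch 0 were called, as were 0 of 16701 in all (0%). At an unadjusted p under 0.05 there were 3, 5.88% beside 5.59% of all (2.6% higher and 2.98% lower), 1 of them higher in cadmium mice and 2 lower. H2bc9, an H2B gene at chr13:23542923-23543444, ranged from 0% over 0% to 6.81% in cadmium mice, 3 of which were above 0, and up to 0.326% in the single vehicle mouse above 0 (difference 0.812 points, adjusted p = 0.813 by the logistic model). H3c6, an H3 gene at chr13:23561475-23562385, had 0 of 2172 methylated reads in cadmium mice (up to 0.138%) and 2 vehicle mice above 0, up to 7.63% (adjusted p = 0.873).

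n-TIaat7, an isoleucine tRNA gene at chr13:22029223-22029296, was the other one: cadmium mice ranged from 0% over 2.88% to 8.57% and vehicle mice from 0% over 6.83% to 26.3%, with means of 3.17% ± 3.18 and 7.85% ± 7.08 (SD, n = 15 each, adjusted p = 0.781 by the logistic model). Of its 11 CpGs, 6 at chr13:22028988-22029034 read 0% in both groups. Another 3, at chr13:22029203-22029227, averaged 1.02% in cadmium and 0.0722% in vehicle mice, so the difference lay at the remaining CpGs. With a minimum of 5 reads the difference of the n-TIaat7 window shrank from -4.68 to -0.845 points. The window of n-TIaat15, chr13:23270421-23270516, ran the opposite way, from 0% over 12.4% to 28.1% in cadmium and from 0% over 0.392% to 17.4% in vehicle mice (adjusted p = 0.941). The serine tRNA gene n-TScga1 averaged 1.3% ± 1.65 and 0.45% ± 0.651, and n-TGgcc7 0.0104% ± 0.0403 and 0.26% ± 0.64, in cadmium and vehicle mice (SD, n = 15 each, adjusted p = 0.99 and 0.898). In each of these tRNA windows the ranges of the groups overlapped.

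Histone genes themselves were low throughout the stretch. Of the 40, 13 had a tested CpG near an end and 11 had 3 or more. All 11 measured windows were under 10% and 10 were under 2%, with a median of 0.504%, a lowest of 0.31% and a highest of 2.3%. All 3 H1 genes were measured, and 1 of 11 H2A, 2 of 12 H2B, 3 of 6 H3 and 2 of 8 H4 genes, so the description of the core histones rests on few genes. Over all gene windows the median was 0.753%, and over the 7 measured histone genes of chromosome 3 it was 0.853%.

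Among the H1 genes, H1f5 was the highest at 0.483% ± 0.799 and H1f3 the lowest at 0.349% ± 0.814, with H1f4 between at 0.444% ± 0.702 (SD, n = 30 each), an order that is well inside the spread between mice. The median depth was 1444.5 reads for the 23 CpGs of H1f5, 1181 for the 26 of H1f4 and 338.5 for the 11 of H1f3. H1f4 was above 0 in 5 cadmium and 10 vehicle mice, and its highest mouse was at 2.92%. The groups differed by -0.262 points there, with an adjusted p of 0.991 in the logistic model.

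The core histone genes were as low in most mice but held single high ones. H2ac10, the measured H2A gene, was at 2.3% ± 7.26 (SD, n = 23), with a median of 0% in both groups and 32.6% in 1 vehicle mouse, from a median of 63 reads over 3 CpGs. H2bc13 was the highest H2B gene at 1.18% ± 5.32 (SD, n = 30), with 28.9% in 1 cadmium mouse, and H2bc9 the lowest at 0.428% ± 1.55 (SD, n = 30). H3c7 was the highest H3 gene at 1.11% ± 2.99 and H3c6 the lowest at 0.504% ± 1.92 (SD, n = 30 each), and H3c4 lay between at 0.877% ± 1.7. H4c9 was the higher of the H4 genes at 0.927% ± 2.65 (SD, n = 29), with 12.4% in 1 cadmium mouse, and H4c11 the lower at 0.31% ± 1.59 (SD, n = 29), with 8.59% in 1 cadmium mouse and 1 vehicle mouse above 0.

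**Figure D3:**
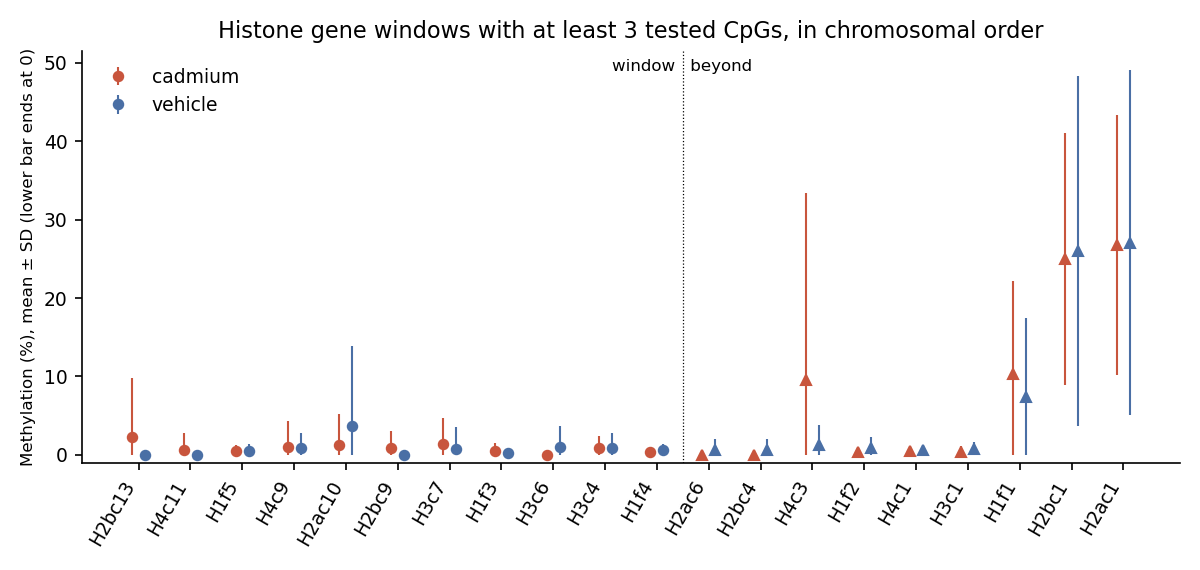
Methylation in percent of each histone gene window with 3 or more tested CpGs, in chromosomal order, as mean ± SD of cadmium and vehicle mice; lower bars end at 0. The 11 windows of the stretch (circles) are at or below 3.65% in both groups, while H1f1, H4c3, H2bc1 (TH2B) and H2ac1 (TH2A) beyond it (triangles) are higher or vary more.

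tRNA genes, which encode the adaptors that carry amino acids to the ribosome, covered a wider range. Of 79, 30 were measured, with a median of 4.74%, 20 under 10%, 5 between 20% and 80%, and a median SD between mice of 5.73 points. The 133 measured tRNA genes elsewhere had a median of 0.714%, with 119 (89.5%) under 10%, 7 (5.26%) between 20% and 80% and a median SD of 1.2 points. Neighbouring tRNA genes share CpGs, so these are not independent loci and the difference was not tested.

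The highest windows were those of n-TDgtc11, an aspartate tRNA gene at chr13:21911313-21911384, n-TVcac4, a valine tRNA gene at chr13:23300122-23300194, and n-TAagc10, an alanine tRNA gene at chr13:23285649-23285721. Their high values lay beside the tRNA genes. The tested CpGs of n-TDgtc11, at chr13:21910890-21910989, and of n-TAagc10, at chr13:23285185-23285219, were all outside these tRNA genes. n-TDgtc11, which shares its 4 CpGs with the noncoding gene Gm40831, ranged from 5.88% over 29.5% to 53.1% in cadmium mice and from 4.14% over 22.1% to 76.6% in vehicle mice. n-TVcac4, with 11 CpGs, ranged from 9.43% over 24.2% to 50.1% in cadmium and from 2.42% over 20.4% to 47.3% in vehicle mice. Of these CpGs, the 8 inside the gene, at chr13:23300127-23300188, averaged 3.15% over the mice. Those past the gene end, at 23300517, 23300528 and 23300656, averaged 47.2%, 25.9% and 34.6%. n-TAagc10, which shares its 3 CpGs with the valine tRNA gene n-TVaac4, ran from 0% to 73.8% in cadmium and from 0% to 100% in vehicle mice, around medians of 22.6% and 17.3%. Partial and variable methylation was thus present in these windows in both groups, and the adjusted p of all 3 was 0.991 in the logistic model.

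Of all intervening genes the noncoding gene Gm33387, which lies inside the H2bc6 model at chr13:23591323-23605954, was the highest, at 65.7% ± 22.9 (SD, n = 30). The lowest were the noncoding gene Gm40833 at 0.0519% ± 0.279 (SD, n = 29), n-TGgcc7 at 0.135% ± 0.463 and Abt1 at 0.221% ± 0.417 (SD, n = 30 each). Abt1 encodes an activator of basal transcription. Both measured zinc finger windows were under 1%, at 0.428% and 0.546%.

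Around histone genes of the stretch the level was low as far as 500 bp, and around tRNA genes it varied without a steady course. All 84 tested CpGs inside a histone gene model shorter than 1000 bp were under 10%, with a median of 0.0538%, as were the 7 at 1 to 100 bp, the 9 at 101 to 250 bp and the 5 at 251 to 500 bp. At 501 to 1000 bp there were only 4, with 2 between 20% and 80%. The 21 tested CpGs inside tRNA genes had a median of 2.41%, with 18 under 10% and 2 between 20% and 80%. Around tRNA genes the 23 CpGs at 1 to 100 bp had a median of 0.456% and the 78 at 101 to 250 bp one of 0.972%. The 89 at 251 to 500 bp had a median of 2.39%, with 17 of those 89 between 20% and 80%, but the 59 at 501 to 1000 bp had a median of 0.996%.

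**Figure D4:**
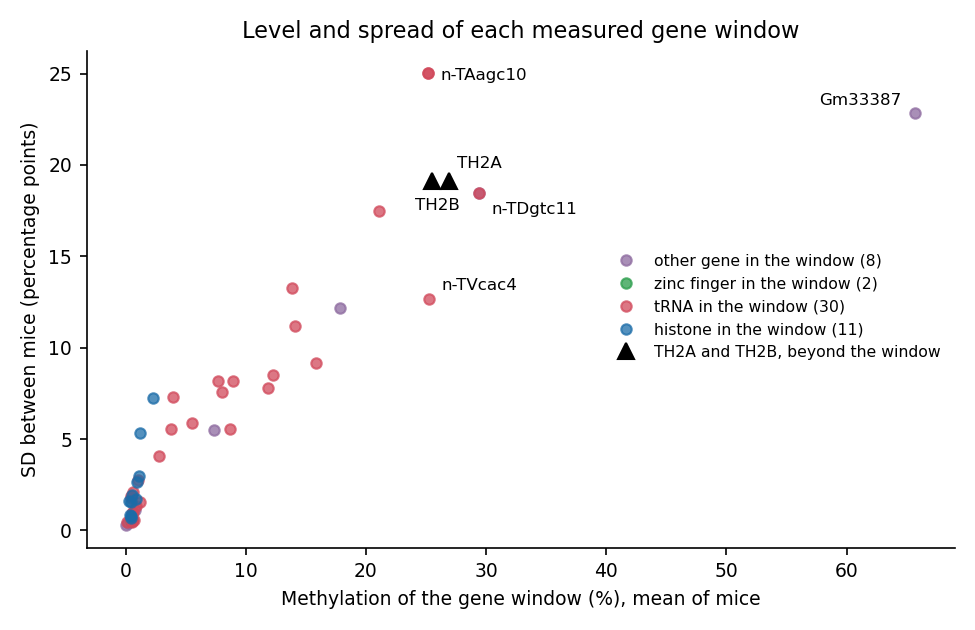
Mean methylation in percent of each of the 51 measured gene windows of the stretch, and of TH2A and TH2B beyond it, against the SD between mice in percentage points. Histone windows (blue) lie at the lower left, tRNA windows (red) run up to 29.4% with SDs up to 25 points, and TH2A and TH2B (triangles) lie at 26.9% and 25.5% with SDs of 19.2 and 19.1 points.

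Spread between libraries followed the level of a region. The 40 regions under 2% had a median SD of 1.48 points, and the 12 between 10% and 40% one of 13.6 points. The corresponding values over all regions were 0.899 and 18.9 points. For the 4 regions between 40% and 80% the median SD was 24.7 points beside 20.6 for all, and for the 9 above 80% it was 5.76 beside 6.38. Median coverage under 2% was 315 reads per mouse in the stretch and 606 over all such regions.

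The region with the largest SD was chr13:23399979-23400012, at no gene, with 3 CpGs. Its values covered the whole scale, from 0% over 47.2% to 100% in cadmium mice and from 0% over 40.1% to 100% in vehicle mice, with an SD of 35.8 points and a median depth of 132 reads. Next came a region in the H2bc6 model at chr13:23592829-23592870, from 16.2% over 68.5% to 99% in cadmium and from 7.14% over 66.1% to 100% in vehicle mice. The region of n-TVaac4 and n-TAagc10, given above, and that of Gm33387, with an SD of 22.9 points, followed. The last of the 5, chr13:21944498-21944540, was at 0% in the median cadmium mouse and at 1.33% in the median vehicle mouse, with up to 49.2% and 73.3%. Differences between the group means of these 5 regions were at most 2.75 points, with adjusted p of 1 in the logistic model.

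Beyond the stretch, 9 of the 16 histone genes were measured, and 7 of these were under 10%. The replication genes H4c1 and H3c1, with 35 and 21 tested CpGs, averaged 0.502% ± 0.5 and 0.573% ± 0.803 (SD, n = 30 each), and H1f2 0.58% ± 1.15. H1f1, a linker histone gene, stood higher at 8.83% ± 10.9 (SD, n = 30), from 0% to 38.9%. The high values lay mainly in a region past the gene end, chr13:23764793-23764910, at 19.4% ± 22.1 (SD, n = 30). A region inside the gene, chr13:23764019-23764104, averaged 2.05% ± 3.5 (SD, n = 30). H4c3 had a mean of 5.42% ± 17.2 but a median of 0% in both groups, with 90.9% in 1 cadmium mouse. All cadmium mice together held 95 methylated of 3794 reads there, so that mouse had fewer reads than the median of 276. H2ac6, whose 6 CpGs are also those of H2bc4, had the smallest p of this set: cadmium mice had 0 of 2450 methylated reads (up to 0.122%), 3 of 14 vehicle mice were above 0, up to 3.79%, and the adjusted p was 0.62 in the logistic model.

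TH2A and TH2B were partly methylated in the libraries of both groups. Whether cells other than sperm contributed to these reads was not tested. The 7 tested CpGs in the TH2A gene, at chr13:23934558-23934676, ranged from 0% over 25% to 100% in cadmium mice and from 0% over 26.7% to 92.7% in vehicle mice. Their means were 30.9% ± 27.4 and 34.3% ± 24.4 (SD, n = 15 each), at a median of 325 reads per mouse. The 7 in the TH2B gene, at chr13:23933994-23934152, ranged from 6.61% over 17.5% to 70.3% in cadmium and from 2.32% over 12.5% to 76.5% in vehicle mice, with means of 22.3% ± 16 and 21.3% ± 19.5 (SD, n = 15 each), at a median of 405 reads. The groups overlapped almost entirely, and the highest TH2A value (100%, cadmium replicate 9) was in a mouse with 14.6% at TH2B. H1t had no CpG listed in any library and was not analysed here.

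The windows of these genes, which overlap, were not called. TH2A differed by -0.324 points (adjusted p = 0.994) and TH2B by -1.0 points (adjusted p = 0.997) in the logistic model. Without the 3 vehicle mice of highest mitochondrial share, the differences were 6.42 and 6.17 points, with adjusted p of 0.889 and 0.898, so the direction rests on those mice.

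The level of these genes moved with measures of the library. Mitochondrial reads made up 0.0127% to 0.119% of coverage. Over the 30 mice the TH2A gene level correlated with this share (Pearson r = 0.675, permutation p = 2e-05, adjusted 8e-05; Spearman rho = 0.728, permutation p = 1e-05, the smallest that 100000 resamples can give), and so did TH2B (r = 0.587, permutation p = 0.00044, adjusted 0.00088; rho = 0.519, p = 0.00383). Without the 2 mice farthest from the median share r was 0.656 and 0.486. Within cadmium mice r was 0.605 (permutation p = 0.015) for TH2A and 0.341 (p = 0.222) for TH2B, and within vehicle mice 0.764 (permutation p = 0.00078) and 0.737 (p = 0.00095). The relation of TH2B was thus not past the threshold in cadmium mice alone. In the windows of both genes, which share CpGs, the 6 libraries of highest share lay above the 6 of lowest share without overlap. The same held for 23.3% of the 1565 gene windows with a mean of 10% to 40%, so such a rise was not particular to these genes. On the CpGs in the TH2B gene alone the ranges overlapped. Within cadmium mice they were 8.72% to 15.2% at lowest share and 10.3% to 70.3% at highest share. Within vehicle mice they were 2.32% to 11.9% and 27.1% to 76.5%. In the TH2A gene alone the ranges did not overlap.

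A second measure was the level at genes with maternal germline DMRs, imprinted control regions that are methylated in oocytes and not in sperm. It was read in the gene windows, within 500 bp of either gene end, and not at the coordinates of the DMRs. A window can therefore miss the DMR of its gene, and the measure is called the maternal DMR level only for short. Of 17 such genes, 10 had data in all mice and a mean below 20%. Plagl1 (21.5%) and Peg13 (23.3%) were above that limit and were left out. The 10 hold 8 distinct sets of CpGs, since Peg3 shares its CpGs with Usp29 and Peg10 with Sgce. Their average ranged from 5.78% to 26.8% in cadmium and from 2.07% to 29.4% in vehicle mice. Over all mice, Grb10 (0.776%) and Inpp5f (0.36%) were near 0, and the other 6 sets, capped by the limit of 20%, lay between 13.1% and 19.4%. TH2A correlated with it at r = 0.582 (permutation p = 0.00071, adjusted 0.000947; rho = 0.596, permutation p = 0.00059) and TH2B at r = 0.488 (permutation p = 0.0064, adjusted 0.0064; rho = 0.395, p = 0.0322). Without the 2 farthest mice r fell to 0.41 (permutation p = 0.0294) and 0.257 (p = 0.187), so the TH2B relation rests on those mice. Within cadmium mice r was 0.394 (permutation p = 0.146) and 0.0222 (p = 0.938), and within vehicle mice 0.834 (permutation p = 0.00052) and 0.802 (p = 0.00107). These were all 4 relations computed.

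**Figure D5:**
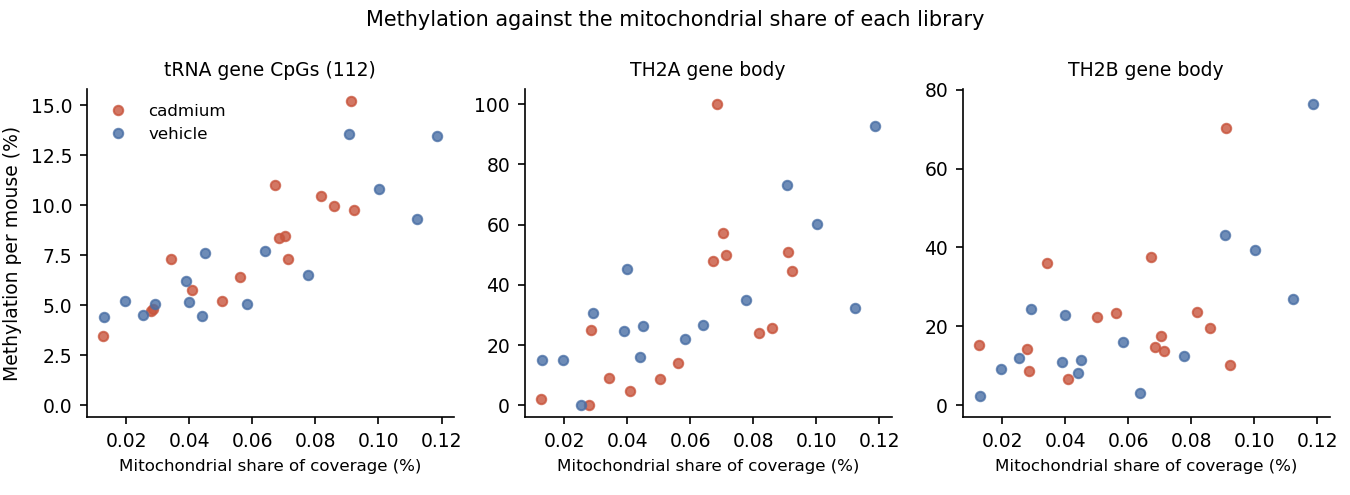
Methylation per mouse in percent of the 112 tRNA gene CpGs, the TH2A gene and the TH2B gene (left to right) against the mitochondrial share of coverage in percent, for 15 cadmium and 15 vehicle mice. The tRNA and TH2A values are higher in libraries with more mitochondrial reads, in both groups, and TH2B values are more scattered.

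CpGs at tRNA genes of the stretch also differed between libraries of low and high mitochondrial share, while the values at histone gene ends overlapped. The 6 libraries with the lowest share (3 cadmium, 3 vehicle) had tRNA means of 3.44% to 5.22% and the 6 with the highest (2 cadmium, 4 vehicle) 9.29% to 15.2%, with no overlap. Within cadmium mice the values were 3.44% to 4.82% against 9.77% to 15.2%, and within vehicle mice 4.42% to 5.22% against 9.29% to 13.6%. CpGs at other genes (21.2% to 24.1% against 27.2% to 30.3%) and at no gene (29.7% to 33.4% against 35.4% to 40.9%) were also apart.

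The 28 CpGs at histone gene ends were at 0% to 1.37% and 0% to 1.08%, and overlap was also found for zinc finger CpGs and the vomeronasal stretch. So did the mean of all 416876 CpGs, at 28% to 28.4% and 27.7% to 28.6%. Of the 28 tRNA windows measured in all 12 of these libraries, 24 (85.7%) had a higher median in those of high share and 0 a lower one, beside 50.6% higher and 40.3% lower of 16085 gene windows, and 64.5% and 35.4% of the 1565 with a mean of 10% to 40%. The median shift was 7.03 points in these tRNA windows and 8.22 points in the windows of 10% to 40%. The ranges of the tRNA windows did not overlap in 4 (14.3%), all higher, beside 3.33% of all gene windows that were higher without overlap, 23.3% of those with a mean of 10% to 40%, and 2.59% of 116 tRNA windows elsewhere.

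These 4 were n-TDgtc11, n-TVcac4, the leucine tRNA gene n-TLcaa2 and the methionine tRNA gene n-TMcat12. n-TLcaa2 was at 0% to 8.56% in the libraries of lowest share and at 21.9% to 70.9% in those of highest share. Gm33387 went the other way, from 55.1% over 82.2% to 100% in the lowest and from 29.7% over 37.5% to 63.3% in the highest, with overlap. The libraries were ordered by mitochondrial share and not by treatment, and what that share reflects was not tested. The part of mitochondrial share or of maternal DMR level in the group comparisons was not tested beyond leaving out the 3 mice.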

How the data were processed

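The deposited tables give, per cytosine of a CpG and strand, the fraction of reads that was methylated and the count of covering reads, as deposited by the authors. Tools listed in the submitters' processing notes are Bismark 0.22.3, Trim Galore 0.5.0, methylKit 1.12.0 and bcl2fastq, with mm10 and GRCm38 as builds, while their steps and order are not given in the sources used here. Methylated reads were the product of fraction and count, whole within 0.1 with at most 1 exception per library, and both strands of a CpG were summed. Coverage summed to 53591172 to 94090975 per library. The methylated control read 97.9% to 98.7% and the unmethylated control 0.074% to 0.666%. Reads without molecular identifiers are not separate molecules, so upper limits for 0 reads, which allow 3 reads of the total over a group, cover counting error only.

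A CpG of the autosomes and X was tested with 10 or more reads, and no more than the 99.9th percentile of a library, in at least 10 mice of each group. Groups were compared on methylated and unmethylated reads by a quasi-binomial logistic model (Pearson dispersion never below 1, F test, NumPy 2.4.6 and SciPy 1.17.1), with Benjamini-Hochberg adjustment over all CpGs, regions or gene windows and calls at an adjusted p under 0.05. Tested on simulated overdispersed reads, the model recovered most placed differences. The simulated spread between mice was smaller than that of regions of 10% to 40% in these data (median SD 18.9 points over all regions). The share recovered therefore does not carry over to such regions. The model was also liberal. More unchanged regions than the nominal share fell under an unadjusted p of 0.05, and more of its adjusted calls were unchanged regions than the threshold allows. Counts at an unadjusted p are therefore given only beside the share over all features. Alternatives were a minimum of 5 or 20 reads, no dispersion term, no upper limit, limma 3.58.1 with and without a replicate block, gaps up to 300 bp, windows of 1000 bp at 1 gene end, a window extended to every histone gene, shares of all reads, and leaving out the 3 mice of highest mitochondrial share. A histone class limited to gene ends, the vomeronasal stretch and the relations without those 3 mice were added after seeing the data. Group means are unweighted over mice.

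Genes, promoters and strands came from RefSeq tables on GRCm38.p6, and promoter positions were checked to fall on CG letters. RefSeq's symbol H4bc24 was taken as an H2B gene from its older name. The members and lists were chosen with earlier results of these data known. Named were the testis variants, the highest and lowest measured gene of each histone family, the 3 higher and 3 lower CpGs, regions and gene windows with the smallest p, the 5 regions with the largest SD, and the 5 highest and 3 lowest intervening genes. H1f4, H3c4, n-TLcaa2, n-TMcat12 and the histone genes beyond the stretch were added as context after their values were seen.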

Additional observations from a re-analysis of the deposited data

How the results depend on the processing

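Without the dispersion term, the model called 137 member CpGs, 36 regions and 32 gene windows of the stretch where the model with it called 0 of each; by its construction that setting counts reads, and not mice, as independent. All other alternatives, limma included, called 0 member CpGs, 0 regions and 0 gene windows. The groups share replicate numbers, and the labels do not say that these pair the mice. The deviations of same-numbered mice correlated at 0.113 on average, beside -0.00668 for mice of other numbers. The correlation was above 0.1 in 6 of 15 pairs, from -0.269 to 0.694, and 2 of 15 mice correlated best with their own number. Whether same-numbered mice share an order or batch was not tested. With the replicate block in limma, 0 member CpGs, 0 regions and 0 gene windows were called.

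The difference of the whole stretch, 0.192 points, stayed within 1 SD of the mice under every alternative run. The TH2A window changed sign with a minimum of 20 reads (0.0547 points) and, like TH2B, without the 3 mice of highest mitochondrial share (6.42 and 6.17 points). Relations past the threshold over 30 mice that were not past it elsewhere were TH2B with mitochondrial share within cadmium mice (r = 0.341), TH2A with the maternal DMR level within cadmium mice (r = 0.394), and TH2B with that level within cadmium mice (r = 0.0222) and without the 2 farthest mice (r = 0.257).

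None of the 39 named differences was called with the dispersion term. Signs turned under 1 setting or more for 14 of them. With a minimum of 5 reads these were the regions at chr13:23424568 (-0.573 points) and chr13:21944498 (1.58, and 2.69 with the replicate block); with 20 reads, H2bc9 (-0.00137) and H4c9 (-0.435). Without the 3 mice they were Gm33387 and its region (-2.22), Gm40831 and n-TDgtc11 (5.68), H4c11 (-0.043), H4c9 (-0.543), H3c4 (-0.0224) and the region at chr13:23592829 (-4.34). With 1000 bp at 1 gene end they were n-TGgcc7 (0.0335) and Gm40833 (-0.827), and with gaps up to 300 bp the region at chr13:21710269 (0.0335). Depth limits the histone genes: 27 of 40 histone genes had no tested CpG near an end, and H2ac10 rests on a median of 63 reads.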
